A study of Rattus norvegicus with 3 samples.

Results

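The genes described here are *Resp18*, *Ly6b*, *Crabp1* and *Bcl6*, 4 of the 33194 records in the RNA sequencing tables of rat kidney. They were chosen because their levels in the Dahl salt-resistant strain (Dahl R) differed at least 2-fold from those in both other strains, so these levels are given as a description, without a test. *Resp18*, *Ly6b* and *Crabp1* were lower in Dahl R and *Bcl6* was higher. All 4 had a single record each, and all 4 were among the 17902 that averaged 1 FPKM or more over the libraries, which are called measured below. FPKM counts sequenced fragments relative to the length of the transcript and to all mapped fragments of the library.

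Dahl R kidney came from rats labelled as 54 days old. The references were the Dahl salt-sensitive strain (Dahl S), labelled as 53 days old, a strain in which dietary salt raises blood pressure, bred from the same stock as Dahl R, and the spontaneously hypertensive rat (SHR), labelled as 55 days old. Weaning was at 30 days, and all animals then received a diet with 0.3% salt, so no group was salt-loaded. Each strain is 1 library of whole kidney RNA depleted of ribosomal RNA. The labels do not give the number or sex of the animals in it. Strain, age and library cannot be told apart, and there are no replicates. The limits given in parentheses after a level are those deposited with it, at an unstated confidence level, and they describe 1 library and not the variation between animals. In whole tissue, fewer cells of a type and less RNA per cell cannot be told apart.

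The 4 genes act in unrelated systems. RESP18, first described in rat neuroendocrine cells, is a protein of the secretory pathway related to the luminal part of PTPRN, a membrane protein of hormone-storing granules. LY6B belongs to the Ly6 family, small disulphide-rich proteins held on the outer cell surface by a lipid anchor, and its mouse counterpart marks neutrophils and monocytes. CRABP1 is a cytosolic carrier of retinoic acid, the form of vitamin A that activates nuclear receptors. BCL6 is a zinc finger protein with a BTB domain that represses transcription through corepressor complexes. It is best known from germinal centre B cells, and in mouse liver it restrains lipid genes and competes with STAT5 at shared sites.

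The promoters of the 4 genes are shown because the genes moved together or in opposite directions in 1 strain. They are taken from RefSeq on the GRCr8 assembly, which is a Brown Norway rat genome, so they do not show the sequence of the strains measured here. Each runs from 250 bases before the start of the gene to 50 bases after it, 5′ to 3′ on the strand of the gene. In *Resp18*, *Crabp1* and *Bcl6*, capitals mark CCAAT and GGGCGG on either strand. *Ly6b* is listed there as a synonym of *Ly6i*, and it is shown with *Ly6al1*, a neighbour in the same gene cluster that went the other way in Dahl R. In that pair, capitals mark the bases that differ in the alignment. The positions are chr9:84220137-84220436 on the minus strand for *Resp18*, chr8:64047181-64047480 on the plus strand for *Crabp1*, chr11:90358503-90358802 on the plus strand for *Bcl6*, chr7:108948017-108948316 on the minus strand for *Ly6b* and chr7:108898335-108898634 on the minus strand for *Ly6al1*.
Resp18: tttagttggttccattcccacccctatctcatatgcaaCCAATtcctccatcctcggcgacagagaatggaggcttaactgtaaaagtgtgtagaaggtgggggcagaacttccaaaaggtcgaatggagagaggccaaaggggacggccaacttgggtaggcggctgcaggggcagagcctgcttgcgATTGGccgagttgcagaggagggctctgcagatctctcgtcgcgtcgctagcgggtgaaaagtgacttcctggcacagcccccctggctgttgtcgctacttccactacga
Crabp1: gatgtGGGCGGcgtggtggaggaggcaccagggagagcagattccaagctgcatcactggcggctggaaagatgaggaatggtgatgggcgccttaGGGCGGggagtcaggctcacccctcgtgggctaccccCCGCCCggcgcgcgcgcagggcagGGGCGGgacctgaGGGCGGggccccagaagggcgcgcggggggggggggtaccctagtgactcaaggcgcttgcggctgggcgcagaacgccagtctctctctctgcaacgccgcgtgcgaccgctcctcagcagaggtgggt
Bcl6: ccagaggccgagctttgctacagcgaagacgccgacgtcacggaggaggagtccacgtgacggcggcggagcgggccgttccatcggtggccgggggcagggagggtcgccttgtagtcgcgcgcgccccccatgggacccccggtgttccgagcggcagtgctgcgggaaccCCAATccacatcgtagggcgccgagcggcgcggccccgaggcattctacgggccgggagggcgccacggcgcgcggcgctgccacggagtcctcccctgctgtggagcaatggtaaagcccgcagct
Ly6b: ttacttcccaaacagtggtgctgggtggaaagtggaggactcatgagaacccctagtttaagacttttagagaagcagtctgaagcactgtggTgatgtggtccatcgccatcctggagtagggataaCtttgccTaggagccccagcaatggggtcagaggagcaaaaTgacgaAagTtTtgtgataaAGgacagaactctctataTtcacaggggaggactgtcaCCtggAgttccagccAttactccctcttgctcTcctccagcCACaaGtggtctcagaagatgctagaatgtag
Ly6al1: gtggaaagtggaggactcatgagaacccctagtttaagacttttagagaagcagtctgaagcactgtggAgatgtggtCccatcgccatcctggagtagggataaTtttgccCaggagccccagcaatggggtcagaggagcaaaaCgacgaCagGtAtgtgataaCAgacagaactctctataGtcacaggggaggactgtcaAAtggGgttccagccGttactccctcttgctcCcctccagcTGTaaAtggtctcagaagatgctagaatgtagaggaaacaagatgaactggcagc

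No motif searched was found in the promoters of all 4 genes, which is common at the shares given here. CCAAT, searched on both strands, had 2 matches in *Resp18*, 1 in *Bcl6* and none in *Crabp1* or *Ly6b*, and 37.5% of 33469 RefSeq promoters of the same length hold at least 1. GGGCGG had 5 matches in *Crabp1* and none in the other 3 genes, against a match in 33.1% of all promoters. The spacing TTCNNNGAA, which STAT and BCL6 proteins are known to bind, had no match in any of the 4 windows and at least 1 in 8.87% of all promoters. TATAAA and the nuclear receptor half-site AGGTCA had none in the 4 windows either, and 14.2% and 16.2% of all promoters hold them. The *Bcl6* and *Crabp1* windows were rich in G and C, at 72.3% and 70.7%, against 56.0% for *Resp18*, 49.0% for *Ly6b* and a median of 51.7% over all promoters. The *Ly6b* window resembled that of *Ly6al1*, with 257 of 277 aligned positions identical, 19 mismatches and 1 gap. RefSeq lists 4 starts for *Ly6al1*, and the other starts aligned with the *Ly6b* window at 56.7% to 68.5% identity over shorter stretches.

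*Resp18* had the widest difference of the 4 genes. Its level was 1.31 FPKM (0.438–2.19) in Dahl R, against 23.2 FPKM (14.9–31.4) in Dahl S and 12.5 FPKM (8.002–17.1) in SHR. The Dahl R limits lay below those of both other strains, while the limits of Dahl S and SHR overlapped, so the limits do not set the order of those strains. The level in Dahl R was 17.6-fold lower than in Dahl S and 9.55-fold lower than in SHR. On the log2 scale of FPKM plus 1, used for all ratios below, the difference was -3.38 over Dahl S and -2.55 over SHR. Among 14183 measured protein-coding records, *Resp18* stood at percentile 5.84 by level in Dahl R, at percentile 73.1 in Dahl S and at percentile 55.2 in SHR. Few fragments appear to carry the Dahl R value. Taking the limits to span 2 counting errors on each side, their width gives about 9.0 fragments in Dahl R. It gives 31.3 in Dahl S and 30.5 in SHR, a far smaller rise than that of the levels. So the assumption did not hold in every library, and these numbers are rough.

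*Ly6b* was the most abundant of the 4 in Dahl S and SHR. It stood at 20.4 FPKM (13.7–27.2) in Dahl R, against 117 FPKM (83.2–151) in Dahl S and 76.8 FPKM (54.6–99.0) in SHR. The Dahl R limits were again below those of the other strains, which overlapped each other. The log2 ratio was -2.46 over Dahl S and -1.86 over SHR, a 5.73-fold and a 3.76-fold lower level. With the nearest limits in place of the values, it was -1.58 over Dahl S and -0.98 over SHR, so that over SHR it was under the 2-fold rule. Even so, *Ly6b* remained at percentile 70.7 of measured protein-coding records in Dahl R, against percentiles 95.6 in Dahl S and 92.8 in SHR.

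*Crabp1* was the least abundant of the 4 in Dahl S and SHR. Its level was 1.86 FPKM (0.716–3.01) in Dahl R, against 7.87 FPKM (4.36–11.4) in Dahl S and 7.20 FPKM (4.30–10.1) in SHR. Dahl S and SHR had nearly the same level, with overlapping limits, and Dahl R lay under both. The log2 ratio was -1.63 over Dahl S and -1.52 over SHR, the smallest of the 3 lower genes. The number of fragments read back in the same way was 10.6 in Dahl R, 20.1 in Dahl S and 24.6 in SHR. These numbers also rise less than the levels, so they are rough. With the nearest limits in place of the values, the log2 ratio was -0.42 over Dahl S and -0.40 over SHR, under the 2-fold rule.

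*Bcl6* alone of the 4 was higher in Dahl R. It had 37.5 FPKM (26.6–48.5) in Dahl R, against 8.50 FPKM (5.74–11.3) in Dahl S and 12.2 FPKM (8.61–15.8) in SHR. Its Dahl R limits lay above those of both other strains, and Dahl S and SHR overlapped. The log2 ratio was 2.02 over Dahl S and 1.55 over SHR, a 4.42-fold and a 3.08-fold higher level. Between the nearest limits it was 1.17 over Dahl S and 0.72 over SHR, where it was under the 2-fold rule. By level it stood at percentile 83.8 of measured protein-coding records in Dahl R, against percentiles 43.4 in Dahl S and 54.3 in SHR.

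**Figure D1:**
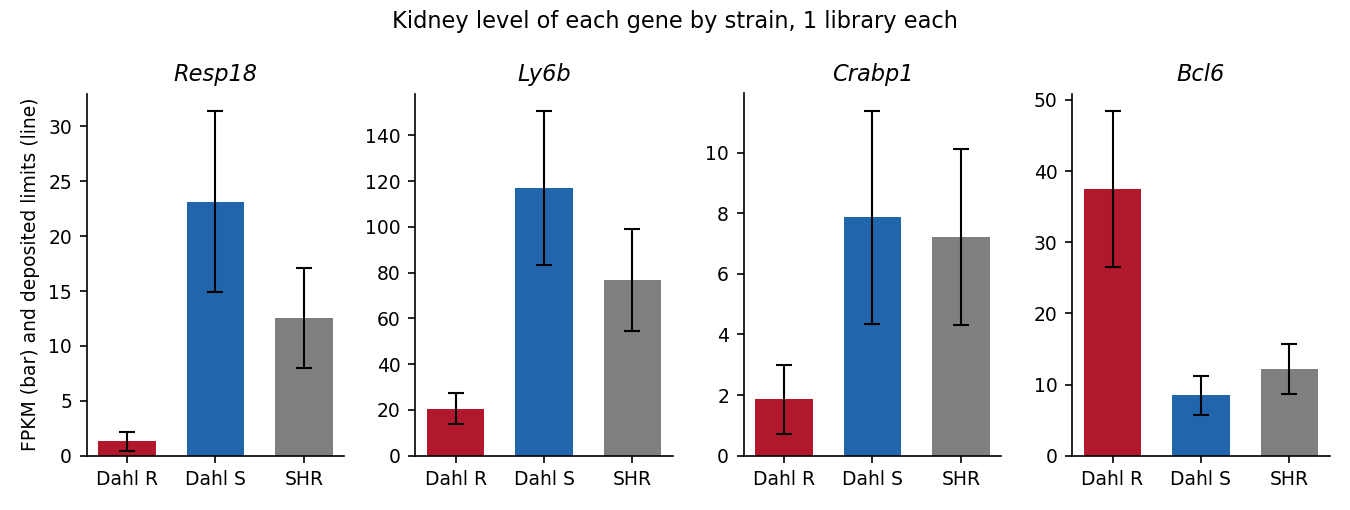
Level of *Resp18*, *Ly6b*, *Crabp1* and *Bcl6* in FPKM (vertical axes, each starting at 0) in 1 kidney library each of Dahl R, Dahl S and SHR; bars are the deposited values and lines the deposited limits. In each panel the Dahl R line does not meet either other line, and the lines of Dahl S and SHR overlap.

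The 4 genes were picked from a larger set. Among 17902 measured records, 723 (4.04%) were at least 2-fold apart between Dahl R and Dahl S, of which 308 (1.72%) were higher and 415 (2.32%) lower in Dahl R. Their limits were also apart for 302 records (1.69%). Over SHR, 787 (4.4%) were at least 2-fold apart, of which 336 (1.88%) were higher and 451 (2.52%) lower, and the limits were also apart for 464 (2.59%). Among the 14183 protein-coding records, 1.97% were called over Dahl S and 2.78% over SHR, or 1.29% and 2.26% with limits apart required. Both comparisons use the same Dahl R library. Records that passed in the same direction in both numbered 239 (1.34%), with 100 higher (0.559%) and 139 lower (0.776%) in Dahl R. Of the 239 records, 86 were protein-coding, 0.606% of those measured, with 0.282% higher and 0.324% lower in Dahl R. Long non-coding records gave 39, or 2.10% of 1860, and other biotypes, mostly short RNAs, gave 114, or 6.13% of 1859. Limits were apart from both other strains for 61 of the 86 protein-coding records and 33 of the 39 long non-coding records, but for 6 of the 114 others. The same rule gave 356 records for Dahl S and 341 for SHR. Nothing is read from the members' share of these counts, since the members were chosen by them.

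**Figure D2:**
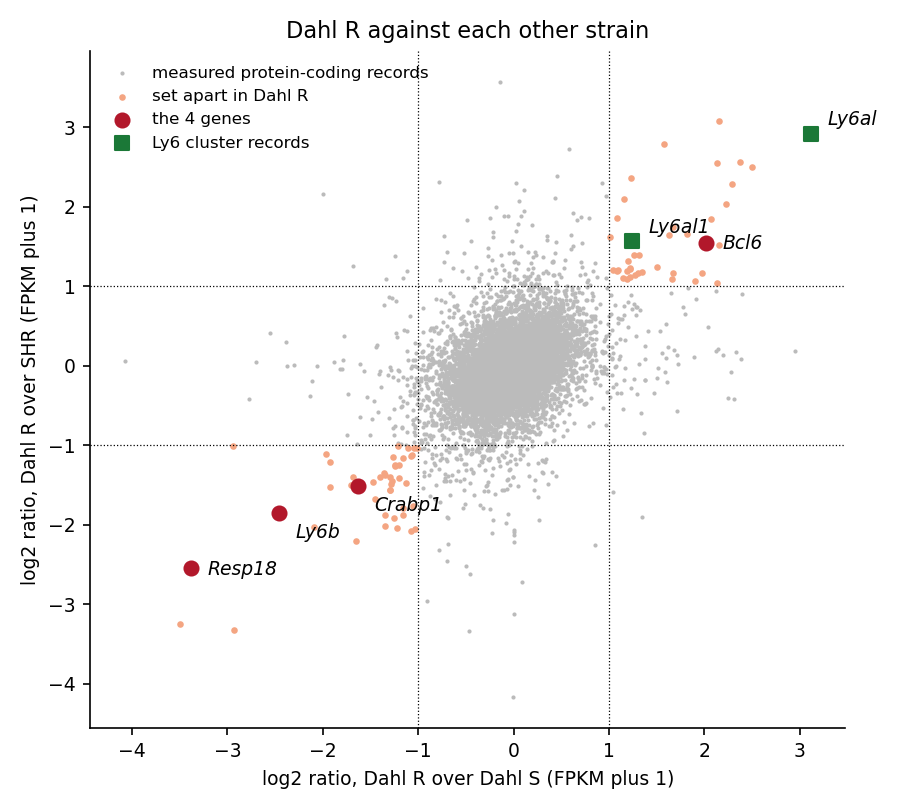
Log2 ratio of Dahl R over Dahl S (horizontal) and over SHR (vertical), on FPKM plus 1, for measured protein-coding records, with dotted lines at the 2-fold rule. *Resp18*, *Ly6b* and *Crabp1* lie at the lower left and *Bcl6* at the upper right. Squares mark *Ly6al* and *Ly6al1*, the neighbours of *Ly6b* that were set apart on the opposite side from it.

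When only gene-named records averaging 5 FPKM or more were kept, 27 were lower and 19 higher in Dahl R. Ranked by the smaller of the 2 log2 ratios, *Resp18* was 4th, *Ly6b* 5th and *Crabp1* 8th of the 27, and *Bcl6* was 5th of the 19. Above *Resp18* on the lower side stood D3ZEQ3_RAT, an uncharacterized protein, at 2.89 FPKM in Dahl R, 43.1 in Dahl S and 36.0 in SHR. The miRNA record *rno-mir-25* and SPRT_RAT, named sproutin in the files, were the others, both listed at 0 in Dahl R and both sharing their locus with other records. Between *Ly6b* and *Crabp1* came only 1 record each of 5.8S and 5S ribosomal RNA, a class that the library preparation was meant to remove. On the higher side the first was D3ZPQ1_RAT, matched to *Ly6al*, and the second *Cyp1a1*, a cytochrome P450 that metabolises foreign compounds, at 25.1 FPKM in Dahl R, 4.87 in Dahl S and 2.09 in SHR. *Pyroxd1*, an oxidoreductase, at 12.1 FPKM in Dahl R, 2.71 in Dahl S and 3.17 in SHR, and LOC100364896, described as cytochrome P450 2C55, at 13.9 FPKM in Dahl R, 3.99 in Dahl S and 1.16 in SHR, followed. Behind *Bcl6* were LOC300024, matched to *Ly6al1*, and the uncharacterized D4ABG9_RAT and D4A608_RAT.

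The rule is a line across a continuum. Just inside it on the higher side were *Nkd2*, a Wnt pathway inhibitor, with a log2 ratio of 1.01 over Dahl S, and *Ebpl* with 1.04 over Dahl S. Just outside were *Pck1*, the rate-limiting enzyme of gluconeogenesis, with 0.97 over SHR, and *Ces1e*, a carboxylesterase, with 0.97 over Dahl S. On the lower side, *Cntf*, a neurotrophic cytokine, with -1.03 over SHR and overlapping limits over Dahl S, and *Egr1*, an immediate early transcription factor, with -1.04 over Dahl S, were just inside. A U6 RNA record with -0.997 over Dahl S and *Col1a1*, a collagen chain, with -0.97 over SHR were just outside.

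*Ly6b* lies in a cluster of its family. In the coordinates of the files, whose genome build is not stated, it is on chromosome 7, 113306011 to 113310996, minus strand (ENSRNOG00000007137). A family member on each side was higher in Dahl R, the opposite of *Ly6b* itself. *Ly6al* (D3ZPQ1_RAT, ENSRNOG00000037374), with a gap of 124 kb to *Ly6b*, stood at 186 FPKM (132–240.2) in Dahl R, against 20.6 FPKM (12.7–28.5) in Dahl S and 23.8 FPKM (15.8–31.9) in SHR. The Dahl R limits were far above the others, with a log2 ratio of 3.12 over Dahl S and 2.92 over SHR. *Ly6al1* (LOC300024, ENSRNOG00000031698), 61.3 kb away on the other side, had 39.0 FPKM (26.8–51.2) in Dahl R, against 15.9 FPKM (9.83–22.0) in Dahl S and 12.5 FPKM (8.02–17.1) in SHR. Its log2 ratio was 1.24 over Dahl S and 1.56 over SHR, with limits apart from both.

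The rest of the cluster did not follow either gene past the 2-fold rule, with 1 exception over Dahl S. *Ly6cl1* (RGD1565410), at 59.2 kb the record of the family nearest to *Ly6b*, stood at 12.8 FPKM (8.09–17.6) in Dahl R, 6.76 FPKM (3.70–9.82) in Dahl S and 6.56 FPKM (3.93–9.20) in SHR, with log2 ratios of 0.83 and 0.87. The abundant *Ly6e*, expressed in many tissues, stood at 226 FPKM in Dahl R, 262 in Dahl S and 247 in SHR, and *Ly6c*, known from mouse monocytes and endothelium, at 56.7 FPKM in Dahl R, 65.7 in Dahl S and 72.8 in SHR. *Ly6m* and *Ly6h* were low, and their highest level was 1.75 FPKM, for *Ly6h* in Dahl S. The exception was a long non-coding record, FQ234170, on the plus strand between *Ly6b* and *Ly6cl1*, with 17.1 FPKM (11.5–22.6) in Dahl R, 7.40 FPKM (4.45–10.4) in Dahl S and 9.04 FPKM (5.91–12.2) in SHR. Its log2 ratio was 1.11 over Dahl S and 0.85 over SHR. The pseudogene records in the same stretch had overlapping limits between all strains.

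**Figure D3:**
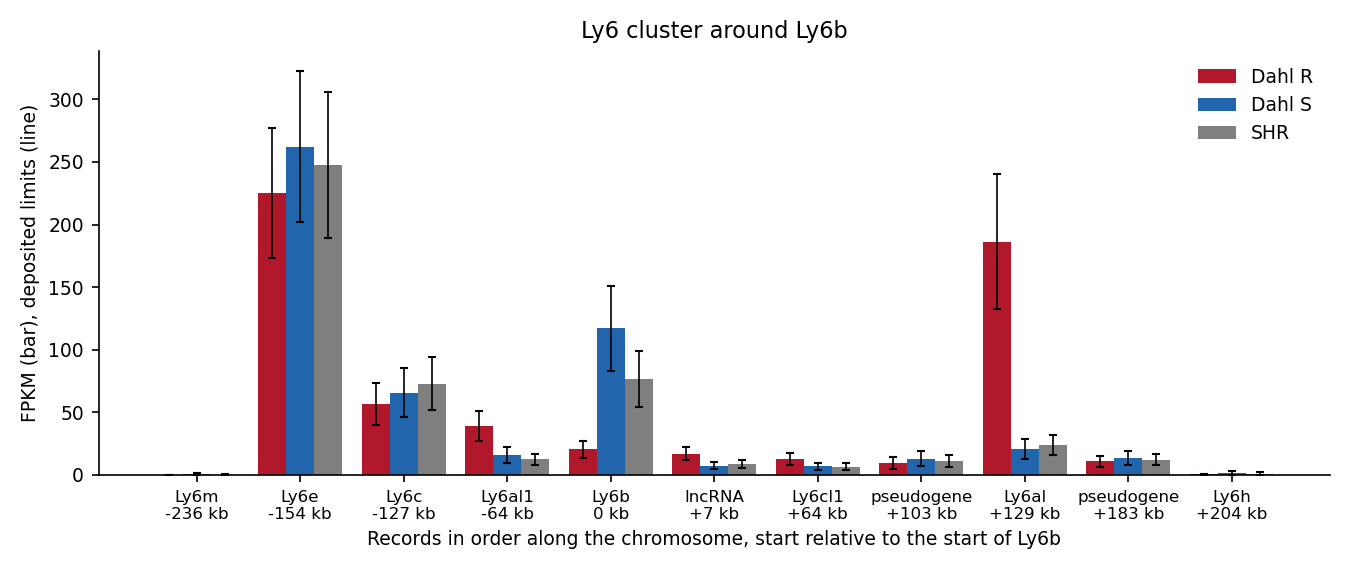
FPKM (vertical axis) of the 11 records from *Ly6m* to *Ly6h* in chromosome order, with the distance of each start from that of *Ly6b* in kb; bars are Dahl R, Dahl S and SHR, lines the deposited limits. *Ly6b* is low in Dahl R where *Ly6al* and *Ly6al1* are high, and *Ly6e* and *Ly6c* are alike in the 3 strains.

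*Ly6b*, *Ly6al1* and *Ly6al* together came to 246 FPKM in Dahl R, 153 in Dahl S and 113 in SHR, and the 8 records with a Ly6 symbol to 541 FPKM in Dahl R, 490.2 in Dahl S and 441 in SHR. Fragments of near-identical copies can be counted to the wrong record, and no source used here states how the authors' counting treated them, so the split of fragments within this family is uncertain in every strain. The part of strain differences in sequence or copy number was not tested. The stretch shown was chosen after the values had been seen.

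The surroundings of the other 3 genes are given beside the shares of all measured records past the 2-fold rule, 4.04% over Dahl S and 4.4% over SHR. At these shares, counts of 0 or 1 are common in windows of this size. For *Bcl6* no record within 400 kb was measured. *Resp18* is on chromosome 9, 74551809 to 74558151, minus strand (ENSRNOG00000019704), and overlaps no other record. Its neighbour *Ptprn*, 9.05 kb away and related to it in sequence, stood at 39.7 FPKM (28.1–51.4) in Dahl R, 37.1 FPKM (26.4–47.8) in Dahl S and 21.1 FPKM (15.0–27.2) in SHR. So *Ptprn* was level between Dahl R and Dahl S within the limits, where *Resp18* was furthest apart, and the log2 ratio of *Ptprn* over SHR was 0.88, of the opposite sign to that of *Resp18*. *Dnpep*, an aminopeptidase gene 28.4 kb away on the other side, had 108 FPKM in Dahl R, 114 in Dahl S and 118 in SHR, and *Dnajb2*, a co-chaperone, 57.7 FPKM in Dahl R, 59.5 in Dahl S and 59.7 in SHR. Of 26 measured records within 400 kb of *Resp18*, 1 passed the 2-fold rule, *Ihh*, a hedgehog ligand, at 6.37 FPKM in Dahl R, 14.1 in Dahl S and 11.7 in SHR, and only over Dahl S. That gene was picked after its values were seen.

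*Crabp1* is on chromosome 8, 58317337 to 58325375, plus strand (ENSRNOG00000023633), with no overlapping record. None of 11 measured records within 400 kb passed the rule in either comparison, which is common at the shares given for the surroundings of *Resp18*. Its nearest neighbour, WDR61_RAT, 30.7 kb away, had 24.9 FPKM in Dahl R, 24.1 in Dahl S and 27.2 in SHR. The chaperone gene *Dnaja4* stood at 19.4 FPKM in Dahl R, 22.7 in Dahl S and 11.5 in SHR, with limits of Dahl R and SHR overlapping. *Chrnb4*, a nicotinic receptor subunit in the same window, fell under the minimum mean. It was listed at 0.120 FPKM in Dahl R, 1.31 in Dahl S and 1.33 in SHR, and was picked after its values were seen.

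*Bcl6* is on chromosome 11, 79006123 to 79030555, plus strand (ENSRNOG00000001843), and lies in a sparse region. The 3 other records within 400 kb had means under 1 FPKM, among them *Sst*, the somatostatin gene, at 0.386 FPKM in Dahl R, 0.517 in Dahl S and 0.300 in SHR. Just beyond, *Rtp4*, an interferon-induced chaperone gene 403 kb away, stood at 4.67 FPKM in Dahl R, 5.74 in Dahl S and 7.33 in SHR, with a log2 ratio below 0 in both comparisons. LPP_RAT, 682 kb away on the other side, stood at 42.3 FPKM in Dahl R, 32.7 in Dahl S and 24.3 in SHR, with log2 ratios of 0.36 and 0.78.

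**Figure D4:**
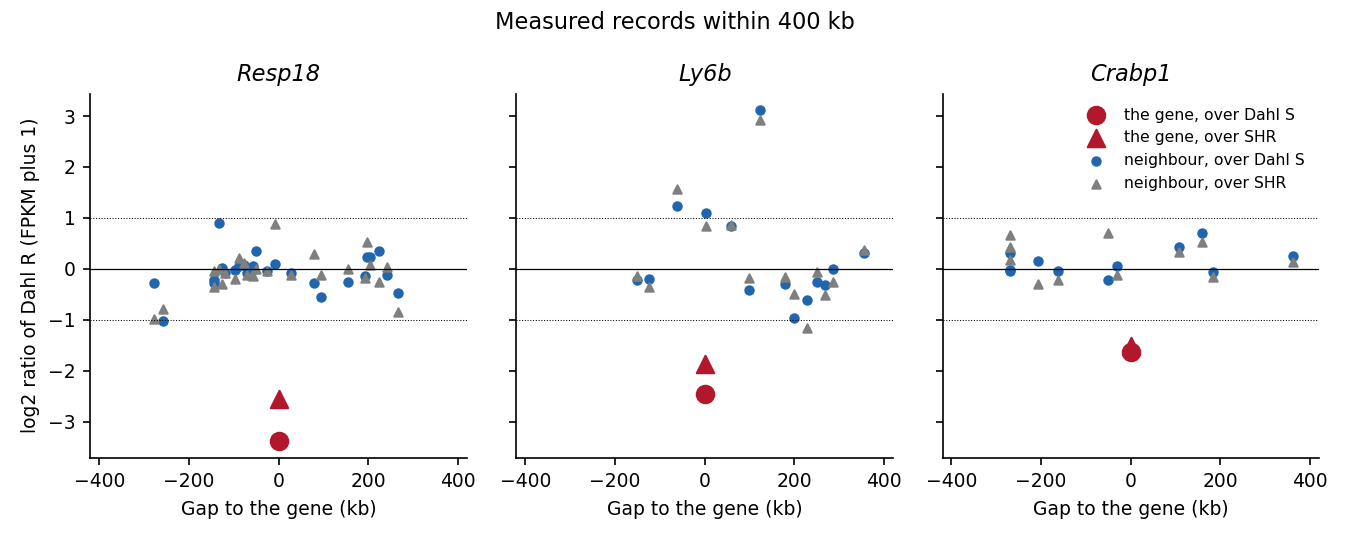
Log2 ratio of Dahl R over Dahl S (circles) and over SHR (triangles), on FPKM plus 1, for measured records within 400 kb of *Resp18*, *Ly6b* and *Crabp1*, against the gap in kb; large red marks are the gene itself and dotted lines the 2-fold rule. No record around *Resp18* or *Crabp1* comes near the gene, while the surroundings of *Ly6b* hold records 2-fold higher in Dahl R; *Bcl6* is not shown because no record within 400 kb was measured.

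The genes most alike in pattern were sought among 10012 named protein-coding records averaging 5 FPKM or more, by the Euclidean distance between their 3 centred log2 values. With 3 libraries this is a coarse measure of likeness. For *Crabp1* they were *Lum*, a matrix proteoglycan, at a distance of 0.20, *Sv2a*, a synaptic vesicle protein, at 0.24, and *Mfap4*, a microfibril protein, at 0.27. *Lum* stood at 1.99 FPKM in Dahl R, 6.60 in Dahl S and 6.74 in SHR, and *Mfap4* at 19.1 FPKM in Dahl R, 47.6 in Dahl S and 53.7 in SHR. For *Ly6b* they were LOC100362769, described as metallothionein-1, at 0.54, *Lum* at 0.79 and *Sv2a* at 0.83. The metallothionein record stood at 25.8 FPKM in Dahl R, 104 in Dahl S and 56.8 in SHR, so it shared with *Ly6b* the order of the 3 strains. For *Resp18* the nearest were D3ZEQ3_RAT at 0.53, SPRT_RAT at 0.88 and the metallothionein record at 1.17. *Ly6b* itself lay at 0.68 from *Resp18* and at 0.59 from *Crabp1*. For *Bcl6* they were *Pyroxd1* at 0.22, LOC100363296, described as ribosomal protein L13a, at 0.34 and *Pck1* at 0.41. *Pck1* stood at 324 FPKM in Dahl R, 90.4 in Dahl S and 164 in SHR.

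A few matrix genes were lower in Dahl R, as the 3 lower genes were. All 13 measured fibroblast and extracellular matrix genes lay below 0 over Dahl S (median log2 ratio -0.46, against -0.04 over all measured protein-coding records) and 10 of 13 over SHR (median -0.56, against -0.04). Of these, 2 passed the 2-fold rule over Dahl S, *Lum* and *Col1a1*, the collagen at 62.0 FPKM in Dahl R, 145 in Dahl S and 122 in SHR, and 2 over SHR, *Lum* and *Postn*. Of all measured protein-coding records, 1.07% were called lower over Dahl S and 1.57% over SHR. Summed over the 13 matched genes, the level was 495 FPKM in Dahl R, 778 in Dahl S and 686 in SHR. Its part in the levels of *Crabp1* and *Ly6b* was not tested.

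The retinoid pathway around *Crabp1* did not share its pattern as a whole. Of 27 measured genes for retinoid carriers, enzymes and receptors, 2 were higher and 1 lower over Dahl S, and 0 were higher and 3 lower over SHR, with median log2 ratios of -0.19 and -0.26. The background for protein-coding records is 0.895% higher and 1.07% lower over Dahl S, and 1.21% higher and 1.57% lower over SHR. The list member that passed in the same direction as *Crabp1* in both comparisons was *Rbp7*, a retinol carrier also known from adipose tissue and endothelium, at 0.336 FPKM in Dahl R, 1.81 in Dahl S and 4.64 in SHR, with overlapping limits between Dahl R and Dahl S. *Rdh2*, a retinol dehydrogenase, stood at 30.4 FPKM in Dahl R, 5.30 in Dahl S and 40.9 in SHR, so it was Dahl S that was low. *Rdh7*, of the same family, showed that order too, at 2.77 FPKM in Dahl R, 0.332 in Dahl S and 3.20 in SHR. *Cyp26b1*, which breaks down retinoic acid, stood at 2.64 FPKM in Dahl R, 4.47 in Dahl S and 7.22 in SHR and passed over SHR, as did *Fabp4*, a fatty acid carrier of fat cells.

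In the Ly6 family as listed, which includes genes of the cluster, both directions occurred. Leaving out *Ly6b*, 19 of its 29 matched genes were measured, and 1 was higher and 1 lower over Dahl S, 1 higher and 3 lower over SHR, with median log2 ratios of -0.16 and -0.22, beside the protein-coding background given for the retinoid genes. The higher one in both comparisons was *Ly6al*, and *Ly6al1* was not on the list. The lower ones were *Lypd1*, known in mouse as a modulator of nicotinic receptors, at 2.46 FPKM in Dahl R, 6.13 in Dahl S and 3.05 in SHR, and, over SHR, *Gpihbp1*, which carries lipoprotein lipase to the capillary wall, *Ly6g6c* and *Ly6g6d*. *Ly6g6c* and *Ly6g6d* have overlapping limits and each shares its locus with 36 other records.

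Of 14 measured genes of the regulated secretory pathway, the setting in which RESP18 is known, 0 were higher and 0 lower in either comparison. Of all measured protein-coding records, 1.97% passed the 2-fold rule over Dahl S and 2.78% over SHR, so a count of 0 is common for a list of this size. The median log2 ratios of the list were 0.05 over Dahl S and 0.09 over SHR. *Vamp2*, a vesicle fusion protein, stood at 84.6 FPKM in Dahl R, 82.1 in Dahl S and 89.5 in SHR, and *Pam*, a peptide-amidating enzyme, at 40.3 FPKM in Dahl R, 42.1 in Dahl S and 47.5 in SHR. Markers of the adrenal gland, a neighbour of the kidney with endocrine cells, were low. The 13 matched genes summed to 8.26 FPKM in Dahl R, 8.91 in Dahl S and 7.30 in SHR. Only 3 of them were measured, and 0 of those 3 passed the rule, beside the same shares of all protein-coding records.

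Known partners and known targets of BCL6 are given beside all measured protein-coding records, of which 1.97% passed the rule over Dahl S and 2.78% over SHR. At these shares a count of 0 among 10 genes is common. Of 10 measured corepressor genes, 0 passed in either comparison (median log2 ratio 0.03 over Dahl S and -0.04 over SHR), and the most abundant, *Ctbp1*, stood at 115 FPKM in Dahl R, 112 in Dahl S and 116 in SHR. Of 10 relatives with BTB domains and zinc fingers, *Zbtb10* alone passed, over SHR, at 1.73 FPKM in Dahl R, 2.92 in Dahl S and 4.46 in SHR. Among 22 measured genes described in other systems as bound or repressed by BCL6, 20 lay below 0 over Dahl S (median log2 ratio -0.31), where 43.8% of all measured protein-coding records lay above 0. That lean was not particular to this list. Over Dahl S, 1 of 13 macrophage and dendritic cell genes, 1 of 9 fat cell genes and 0 of 13 matrix genes lay above 0. Other lists leaned the opposite way, with 16 of 21 FOXO and fasting genes and 12 of 16 clock genes above 0. Over SHR 13 of 22 lay below 0 (median -0.11), where 44.5% of all lay above. None was 2-fold higher, 1 was lower over Dahl S and 3 over SHR, beside the protein-coding background given for the retinoid genes. Over Dahl S it was *Cdkn1a*, a cell cycle inhibitor, at 2.29 FPKM in Dahl R, 5.64 in Dahl S and 2.33 in SHR, with overlapping limits. Those over SHR were *Cish*, a feedback inhibitor of cytokine signalling, at 19.0 FPKM in Dahl R, 26.5 in Dahl S and 54.6 in SHR, *Pdk4*, an inhibitor of pyruvate oxidation, at 4.90 FPKM in Dahl R, 7.48 in Dahl S and 14.9 in SHR, and *Angptl4*, a lipase inhibitor, at 3.45 FPKM in Dahl R, 6.90 in Dahl S and 8.02 in SHR. All 3 were lowest in Dahl R and highest in SHR. *Bcl6* was highest in Dahl R and lowest in Dahl S, with overlapping limits between Dahl S and SHR. The part of BCL6 in the levels of these genes was not tested.

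**Figure D5:**
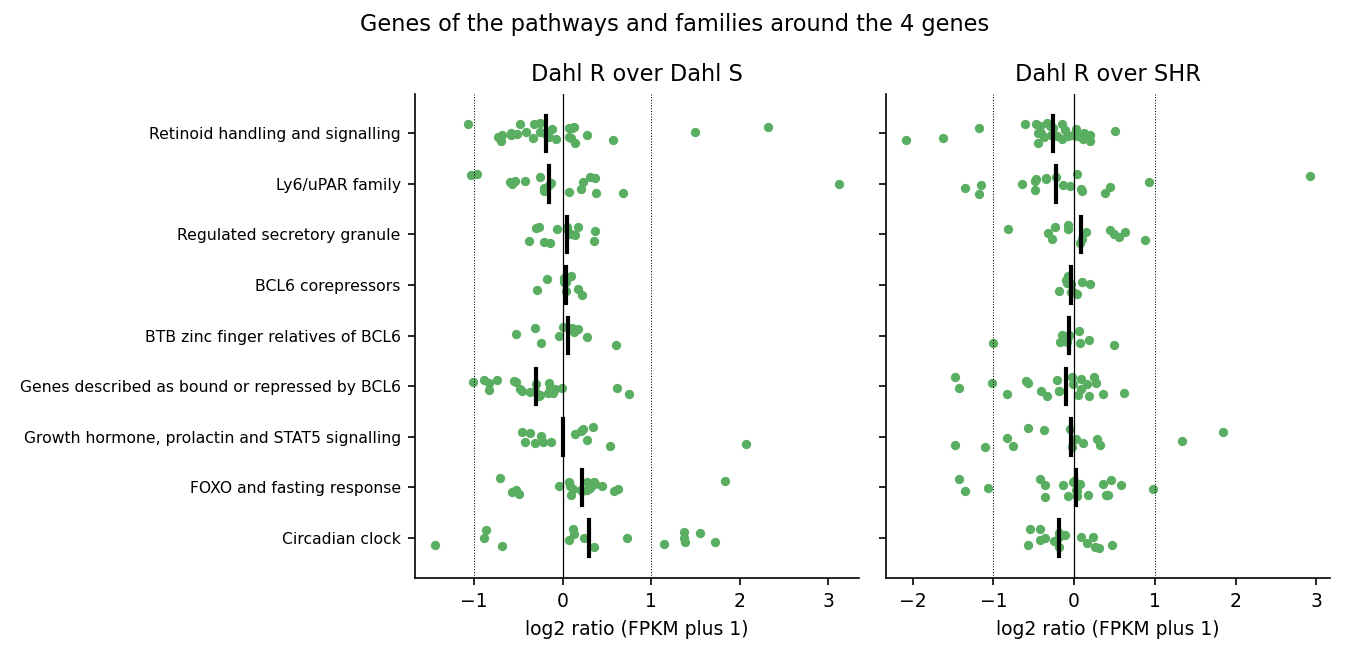
Log2 ratio of Dahl R over Dahl S (left) and over SHR (right), on FPKM plus 1, for measured genes of 9 lists (green points, spread vertically for sight only), with the median of each list as a black bar and dotted lines at the 2-fold rule. The medians lie within 0.31 of 0 in both panels, and the point far to the right in the Ly6/uPAR row is *Ly6al*.

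Growth hormone, prolactin, STAT5 and FOXO signalling, known to govern *Bcl6* in other tissues, and the circadian clock, listed beside them, were mixed. Their counts stand beside 0.895% of measured protein-coding records higher and 1.07% lower over Dahl S. Over SHR these shares were 1.21% and 1.57%. Of 14 measured genes of growth hormone, prolactin and STAT5 signalling, 1 was higher over Dahl S and none lower, and 2 were higher and 2 lower over SHR (medians 0.003 and -0.04). *Cyp2c11*, a P450 that depends on growth hormone in male rat liver, was higher in both, at 5.98 FPKM in Dahl R, 0.666 in Dahl S and 0.949 in SHR. *Igfals*, the carrier of circulating IGF complexes, stood at 5.77 FPKM in Dahl R, 6.92 in Dahl S and 1.68 in SHR, and *Igfbp1*, an IGF carrier, at 20.5 FPKM in Dahl R, 28.0 in Dahl S and 45.3 in SHR. Of 21 genes of FOXO and the fasting response, *Pck1* was the 1 higher over Dahl S, and *Irs2*, *Pdk4* and *Txnip*, the last with overlapping limits, were lower over SHR (medians 0.21 and 0.02). Of 16 clock genes, 6 were higher and 1 lower over Dahl S and 0 passed over SHR. *Dbp*, a clock output transcription factor, stood at 140.01 FPKM in Dahl R, 41.9 in Dahl S and 208 in SHR.

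The summed levels of blood and immune cell markers are given beside the 4 genes. Counts past the rule stand beside the protein-coding background given for the retinoid genes. The 18 neutrophil markers, of which 7 were measured, summed to 31.5 FPKM in Dahl R, 40.6 in Dahl S and 34.8 in SHR. Of the 7, *Mmp9* was higher over Dahl S (log2 ratio 1.09) and *Mpo* lower over SHR (-1.45). The granule protease gene *Elane*, not among the measured and picked after its values were seen, was listed at 0 in Dahl R, at 0.457 FPKM in Dahl S and at 0 in SHR. Macrophage and dendritic cell markers summed to 459 FPKM in Dahl R, 538 in Dahl S and 442 in SHR, with none of 13 past the rule, and lymphocyte markers to 43.5 FPKM in Dahl R, 47.4 in Dahl S and 31.0 in SHR, with *Cd3d*, *Cd3e* and *Cd3g* higher over SHR. Red blood cell genes summed to 5445 FPKM in Dahl R, 13027 in Dahl S and 3194 in SHR, with 4 of 6 lower over Dahl S and 1 higher over SHR, so Dahl R lay between the others. Fat cell genes summed to 195 FPKM in Dahl R, 232 in Dahl S and 573 in SHR, with 0 of 9 past the rule over Dahl S and 6 lower over SHR. Smooth muscle and urothelial genes, with 0 of 7 past the rule, summed to 261 FPKM in Dahl R, 343 in Dahl S and 287 in SHR. Their part in the levels of the 4 genes was not tested.

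The tissue label matched its markers in all 3 libraries. Of 16 markers that define kidney epithelium 15 were matched, and *Umod*, the urinary protein of the thick ascending limb, stood at 4475 FPKM in Dahl R, 4028 in Dahl S and 5783 in SHR, with limits that reach 0 in Dahl R and Dahl S. Only *Slc26a4* of the 14 measured passed the 2-fold rule, over SHR only, at 17.0 FPKM in Dahl R, 24.3 in Dahl S and 36.8 in SHR. Of all measured protein-coding records, 1.97% passed over Dahl S and 2.78% over SHR. Mitochondrial records took 21.9% to 28.1% of all FPKM. No read totals were used. Relative to Dahl S, the depth estimated from 195 low records was 1.33 in Dahl R and 1.71 in SHR.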

How the data were processed

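Total RNA of kidney, depleted of ribosomal RNA, was sequenced as 1 library each for Dahl R, Dahl S and SHR. TopHat 1.3.1 and Cufflinks 1.0.3 are named in the submitters' processing notes. No source used here states the genome build or the settings. The authors deposited FPKM per record with a lower and an upper limit, per the file headers. Read counts and totals are not among the values used, so the depth is known only as a ratio between libraries. That ratio and the fragment numbers rest on the assumption that a limit lies 2 times the value over the square root of the fragment number away. The number so derived was whole within 0.01 for 20.1% of records under 20 fragments in Dahl R, 20.5% in Dahl S and 20.0% in SHR. For *Resp18* and *Crabp1* it rose less between libraries than the level did, so the assumption did not hold for every record.

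Records were joined by identifier. A log2 ratio was taken on FPKM plus a pseudocount of 1, which understates the change of low genes, and called at a size of at least 1 with a mean of at least 1 FPKM over the 3 libraries. With 1 library a strain no test was made and no p-value is given. Limits were called apart when they did not overlap, and 1 missing upper limit was counted as an overlap. The 4 genes and all lists were chosen with earlier results of these data known.

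Genes named besides the 4 were taken by rule. They are the 3 named neighbours on each side, the 3 nearest patterns among named protein-coding records of at least 5 FPKM, up to 6 called genes of a pathway list or up to 4 of a marker list by mean FPKM (otherwise the 2 most abundant), the first 8 records on each side, and the 2 records on each side of the threshold. Not all are described, and genes picked otherwise are said to be. Of 332 list genes, 277 were matched by name, 16 through RefSeq symbols and 1 was *Ly6b* itself, and 38 were not matched. Promoters came from RefSeq on GRCr8. Alternatives covered the pseudocount, the minimum mean, scaling, record length, shared loci and the limits, and the steps were tested on simulated data. Python 3.11.15, numpy 2.4.6, pandas 2.3.3, scipy 1.17.1, matplotlib 3.10.9 and Biopython 1.88 were used.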

Additional observations from a re-analysis of the deposited data

How the results depend on the processing

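Of 64 log2 ratios of the 4 genes under alternatives, 58 stayed past the 2-fold rule, 6 fell short of it and 0 changed sign. This tally is a description, since the genes were chosen on these ratios. Neither a pseudocount nor limits that lie apart can change a sign. None of the 4 shares its locus, so summing the records of a locus changed nothing. With a pseudocount of 5, *Crabp1* was at -0.91 over Dahl S and -0.83 over SHR. With the nearest deposited limits in place of the values, *Crabp1* was at -0.42 over Dahl S and -0.40 over SHR, *Ly6b* at -0.98 over SHR and *Bcl6* at 0.72 over SHR. *Resp18* passed under every alternative tried. The counts of records depended on the low ones. Over Dahl S, 723 records became 1196 with a pseudocount of 0.1, 178 with 5, 1264 with no minimum mean, 1090 with a minimum of 0.5 FPKM, 230 with 5 FPKM and 302 with limits apart required. Over SHR, 787 became 1270 with a pseudocount of 0.1, 214 with 5, 1231 with no minimum mean, 320 with 5 FPKM and 464 with limits apart. The 239 set apart in Dahl R became 410 with a pseudocount of 0.1, 42 with 5, 440 with no minimum mean, 69 with 5 FPKM and 100 with limits apart. Of 318 list medians under alternatives, 287 stayed within 0.1 of their value and 31 moved further. Among those that moved, the genes bound or repressed by BCL6 were at -0.34 over SHR with a minimum of 5 FPKM, and the retinoid genes at -0.11 over SHR with a pseudocount of 5. The sign differed in 15 of the 318. These were medians of the Ly6, secretory granule, growth hormone, corepressor, lymphocyte, adrenal and smooth muscle lists, and under other scalings those of the corepressors over SHR and of the adrenal genes over Dahl S. Scaling moved the median of all protein-coding records by less than 0.1. No paired analysis was possible because each strain has 1 library. Without replicates, nothing here separates strain from animal, age or library.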
